A study of Mus musculus with 4 samples.

Results

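Fibro-adipogenic progenitors (FAPs) that express Myoc and Fst were examined in single-cell RNA sequencing data of mouse hindlimb muscle. Cells were selected on their own measured transcripts. A cell was taken as a member when at least 4 of the 7 genes Myoc, Fst, Cyp2f2, Frmpd4, Scara3, Penk and Colec12 and the gene Pdgfra were detected, and fewer than 4 of the 7 genes Pi16, Adgrd1, Sbsn, Ptx3, Smpd3, Has1 and Efemp1 were detected. Of 18153 cells with more than 200 detected genes and under 10% mitochondrial UMIs (unique molecular identifiers, the counted molecules), 925 met this rule, or 5.10%. The genes of the rule are therefore descriptions of the selection and not results.

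FAPs are mesenchymal cells of the muscle interstitium that carry the platelet-derived growth factor receptor alpha (Pdgfra). They lay down extracellular matrix, secrete factors that act on muscle stem cells and fibres, and can turn into fat cells or matrix-depositing fibroblasts. Myocilin (Myoc) is a secreted glycoprotein of the olfactomedin family, and follistatin (Fst) binds and blocks activins and myostatin, which restrain muscle growth. Pi16 marks another, adventitial type of fibroblast.

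Every group carried S100GFP-tg, a reporter that marks Schwann cells with GFP under the S100B promoter. Hindlimb muscle (tibialis anterior and gastrocnemius) was taken at 2 months from males, pooling 4 per genotype, which carried the reporter alone (WT) or the reporter and a Sod1 knockout (Sod1KO). Live cells of each pool were sorted into GFP+ and GFP- fractions, each of which gave 1 library. Genotype, pool and preparation can therefore not be told apart, and no difference between groups has a replicate check. Every interval below is a 95% interval for counting error only, exact for shares and ratios and approximate for differences of shares. Those of ratios count each UMI as independent, so they are too narrow where a few cells hold many of the UMIs. Below, values for several libraries are given in the order WT GFP+, Sod1KO GFP+, WT GFP- and Sod1KO GFP-.

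Among the members, Sod1, which encodes the cytosolic superoxide dismutase, was counted at 101, 92.4, 105 and 113 CPM (UMIs of a gene per 1000000 UMIs summed over the cells). Sod1 counts were thus not lower in the Sod1KO libraries, and the log2 ratio of Sod1KO over WT was -0.12 in GFP+ and 0.10 in GFP-. The sources used here do not say which part of the gene the allele removes, and 3' tags may lie outside it, so these counts check nothing. WT and Sod1KO below mean the libraries with those labels.

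The 4 libraries held 4767, 6291, 1665 and 5430 cells after filtering. WT GFP- stood apart: its cells had a median of 8275 UMIs against 13122 to 15273 in the others, and 71.8% of them were endothelial-type, which means at least 6 of 10 endothelial markers and no Pdgfra detected. The share of endothelial-type cells was 57.3% in Sod1KO GFP- and 9.27% to 11.9% in the GFP+ libraries. Pairs of libraries shared at most 10 cell barcodes, and 0 barcodes were a member in both libraries of a pair.

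The members made up 3.08% of cells in WT GFP+ (147 cells, interval 2.61% to 3.61%) and 5.01% in Sod1KO GFP+ (315 cells, 4.48% to 5.58%). In the GFP- sort they made up 2.16% of cells in WT (36 cells, 1.52% to 2.98%) and 7.86% in Sod1KO (427 cells, 7.16% to 8.61%). The share was higher in the Sod1KO library of each sort, by 1.92 percentage points in GFP+ (1.19 to 2.65) and by 5.70 points in GFP- (4.63 to 6.66). Both intervals lay above 0, but they hold no variation between mice or preparations.

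These shares also move with the other cells in a sort. Of the cells with Pdgfra detected, members were 21.0%, 23.7%, 27.7% and 40.9%. On this base the difference in GFP+ was 2.74 points with an interval of -1.13 to 6.44, which includes 0, and in GFP- it was 13.2 points (4.45 to 20.8). Detection rises with depth, and members had medians of 18031, 13964, 13800 and 15557 UMIs. With each cell thinned to 5000 UMIs and shallower cells left out (816, 972, 541 and 724 cells), 80, 172, 25 and 283 cells met the rule, or 2.02%, 3.23%, 2.22% and 6.01%. The Sod1KO share stayed above the WT share in each sort.

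The members outnumbered the opposed FAP type in every library. Cells with Pdgfra, at least 4 of the Pi16 genes and fewer than 4 of the Myoc genes, called Pi16-type here, numbered 56, 108, 8 and 84. Members per Pi16-type cell were 2.62, 2.92, 4.50 and 5.08, so that the ratio was higher in the GFP- libraries, where that of WT rests on 8 cells. The share of Pi16-type cells among all cells was also higher in Sod1KO, by 0.54 points in GFP+ and 1.07 points in GFP-. Among Pdgfra-detected cells these differences were 0.14 points (-2.48 to 2.53) and 1.89 points (-3.83 to 5.40), and both intervals include 0. A further 77, 136, 7 and 136 cells had at least 4 genes of both lists and belong to neither type.

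**Figure D1:**
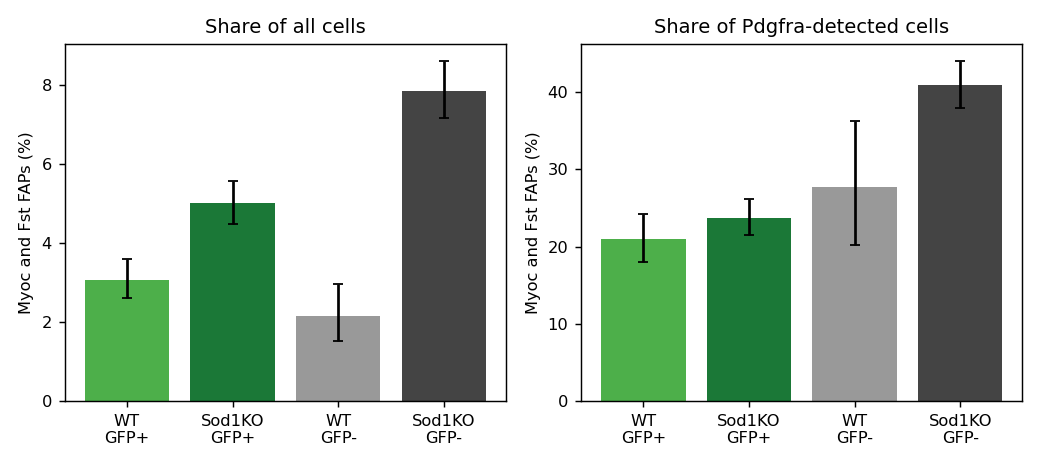
Share of Myoc and Fst FAPs in each library, as percent of all cells (left) and of cells with Pdgfra detected (right), with exact 95% counting intervals as error bars. The share of all cells runs from 2.16% in WT GFP- to 7.86% in Sod1KO GFP-, and among Pdgfra-detected cells the GFP+ intervals overlap.

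The thresholds cut through continuous ranges. Just outside the first threshold, 511 Pdgfra-detected cells had 3 of the 7 marker genes. Inside it, 335 members had 4, 342 had 5, 193 had 6 and 55 had all 7. At the second threshold, 199 members had 3 of the excluding genes, and 147 cells outside had 4.

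The following levels of the rule's own genes describe the selection. Myoc stood at 2035, 1322, 3743 and 2641 CPM in members and was detected in 80.3% to 94.4% of them. In Pi16-type cells Myoc was at 271, 137, 178 and 221 CPM, and in endothelial-type cells, which should lack it, at 4.07 to 25.2 CPM. Fst stood at 477, 488, 741 and 677 CPM in members. Both were lower in the GFP+ than in the GFP- members of each genotype. With cells thinned to 5000 UMIs, Myoc was detected in 74.3%, 67.3%, 77.8% and 83.8% of members and in 2.99%, 3.51%, 3.97% and 0.933% of endothelial-type cells.

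Penk encodes the precursor of the enkephalin opioid peptides and stood at 279, 335, 357 and 323 CPM in members. Scara3, a scavenger receptor of class A, was at 138, 162, 224 and 243 CPM, and Colec12, a collectin that also acts as a scavenger receptor, was at 297, 398, 369 and 566 CPM. Cyp2f2, a cytochrome P450 enzyme, was at 68.7, 58.3, 42.8 and 63.2 CPM and was detected in only 25.0% to 28.6% of members, so that most members qualified without it. Frmpd4, a scaffold protein known from synapses, was at 54.6, 61.3, 65.9 and 91.7 CPM, and Pdgfra at 424, 436, 578 and 604 CPM. On the excluding side, Pi16 was at 123, 60.8, 168 and 147 CPM in members against 2480, 1522, 955 and 1872 CPM in Pi16-type cells. The label names Myoc and Fst, both genes of the rule, so their level over the sum of the members follows from the selection. Their levels were unequal among the subclusters.

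**Figure D2:**
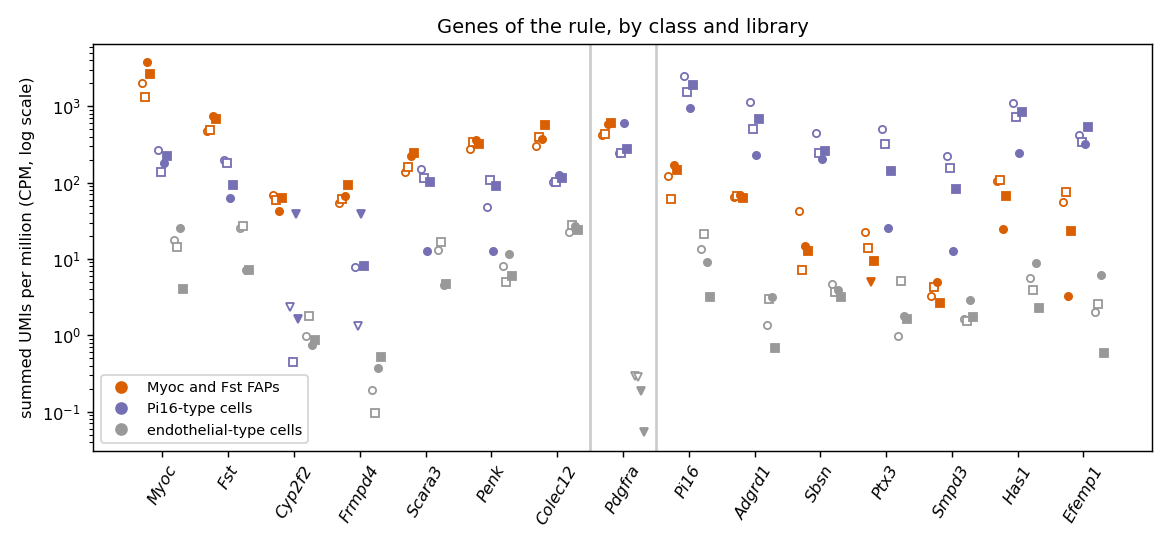
Summed level (CPM, log scale) of the 15 genes that chose the cells, in Myoc and Fst FAPs, Pi16-type cells and endothelial-type cells, with WT as circles, Sod1KO as squares, GFP+ open and GFP- filled. Downward triangles mark 0 UMIs, drawn at 3 UMIs; Myoc in members lies between 1322 and 3743 CPM.

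The rule does not remove cells whose libraries also hold transcripts of other types. Of the 925 members, 267 (28.9%) had at least 50% of the markers of another cell class detected, with shares of 38.8%, 35.6%, 47.2% and 19.0% over the libraries. Markers of endoneurial fibroblasts, the stromal cells within nerves, were found this way in 21.8% and 14.9% of GFP+ members and in 11.1% and 7.26% of GFP- members. Schwann cell markers were found in 11.6% and 13.0% of GFP+ members and in 0 GFP- members. Endothelial markers were found in 30.6% and mural cell markers in 33.3% of the 36 WT GFP- members, against 1.90% to 6.79% in the other 3 libraries. Summed levels of the Schwann list were 1204, 1436, 349 and 385 CPM, those of the tenocyte list 4327, 3091, 1273 and 1179 CPM, and those of the endothelial list 255, 179, 1035 and 364 CPM. Macrophage markers summed to 220, 80.5, 4.94 and 22.9 CPM, and Adgre1 and C1qa were at 0 in both WT libraries.

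Leiden clustering on genes other than those of the rule divided the members into 8 subclusters, numbered by size and left unnamed. A finer resolution of 1 gave 13 in place of 8, so the number is a choice of setting. Subclusters 1, 2 and 3 held 614 members, or 66.4%. Fst stood at 734, 807 and 1244 CPM in them and at no more than 438 CPM in the other 5, and Cyp2f2 at 110, 73.9 and 111 CPM against 2.14 to 40.3 CPM. Myoc did not divide them in this way, with 1682 and 1657 CPM in subclusters 1 and 2 against 2322 CPM in subcluster 5, and it was detected in 66% of subcluster 2. Comparisons were repeated in subclusters 1 to 3, a choice made after these values were seen. By library, subclusters 1 to 3 held 83, 190, 22 and 319 members. The leading genes below were found on the cells that were clustered and carry no test.

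Subcluster 1 (259 cells) was led by Ccl21a, a lymphoid chemokine found in only 2.70% of its cells, and by genes found in more of them. Robo2, a receptor for Slit axon guidance cues, stood at 130 CPM against 28.7 CPM in the other members. Pappa, a protease that frees insulin-like growth factor from its binding proteins, was at 162 against 36.1 CPM, and Rspo3, a secreted enhancer of Wnt signalling, at 85.0 against 20.6 CPM. Colec12 was higher here than in any other subcluster, at 819 CPM. Subcluster 1 took 17.7%, 25.1%, 13.9% and 34.9% of the members of each library.

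Subcluster 2 (200 cells) was led by complement and chemokine genes. C3, the central complement component, stood at 1099 CPM against 110 CPM in the other members, and C4b at 322 against 27.7 CPM. Inmt, a methyltransferase of small amines, was at 687 against 73.1 CPM, Gdf10, a ligand of the TGF-beta family, was at 583 CPM, and Penk reached 562 CPM, its highest level among the subclusters. The chemokine Cxcl13 led in fold but was found in 6% of cells. Subcluster 2 took 35.4%, 29.5%, 16.7% and 11.5% of members, a larger share in both GFP+ libraries than in both GFP- libraries.

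Subcluster 3 (155 cells) had the highest Myoc, Fst and Frmpd4 of all. Myoc stood at 6684 CPM and Fst at 1244 CPM, against at most 2322 and 807 CPM in any other subcluster. Its leading genes were Dpp6, a potassium channel subunit, at 110 against 7.81 CPM, Stmn2, a microtubule-binding protein best known from neurons, at 278 against 20.1 CPM, and Clu, the secreted chaperone clusterin, at 1159 against 154 CPM. Gabra3, a GABA receptor subunit, was found in 71.6% of its cells. Subcluster 3 took 3.40% and 5.71% of GFP+ members and 30.6% and 28.3% of GFP- members. Its Myoc level was 5108, 7303, 7700 and 6564 CPM by library, on 5, 18, 11 and 121 cells, so that the level was alike while the share was not.

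The other 5 subclusters were smaller, and 3 of them carried markers of other cell classes at a high level. In subcluster 4 (84 cells) the Schwann list summed to 4094 CPM and the perineurial list to 1461 CPM. In subcluster 5 (69 cells) the tenocyte list summed to 14193 CPM, with Scx, the tendon transcription factor, at 331 CPM and Tnmd at 1286 CPM. In subcluster 8 (49 cells) the mural list summed to 8055 CPM and the endothelial list to 2716 CPM. Endoneurial fibroblast markers summed to 385 to 1360 CPM over the 8 subclusters, highest in subcluster 7 and next in subcluster 5 (1130 CPM). A score from simulated doublets marked 71.4% of subcluster 8, 23.8% of subcluster 4 and 21.7% of subcluster 5, but at most 1.29% of any other subcluster. The part of doublets in these subclusters was not tested beyond that score.

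Subclusters 6 and 7 held neither doublet calls nor much Cyp2f2. Subcluster 6 (57 cells) was led by Rtl4, Ret, the receptor for GDNF family ligands, at 137 against 12.8 CPM, and Pcsk6, a proprotein convertase, at 305 against 29.3 CPM. Subcluster 7 (52 cells) had Myoc at 547 and Fst at 69.4 CPM, low among members. It was led by Col9a2, Thrsp, a gene of fat synthesis, at 233 against 5.42 CPM, and Dlk1, an inhibitor of fat cell formation, at 404 CPM. The glucocorticoid-activating enzyme gene Hsd11b1 was found in all of its cells, at 1011 CPM, and Apod reached 13711 CPM. Subcluster 7 took 14.3%, 5.08%, 0% and 3.51% of members, where the interval for 0 of 36 cells reaches 9.74%.

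**Figure D3:**
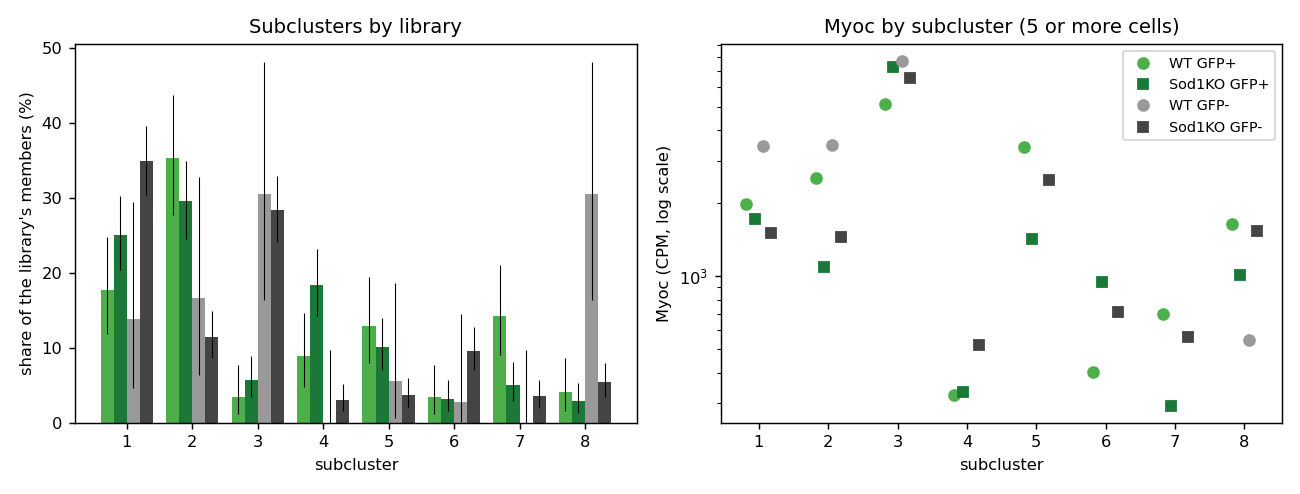
Share of each library's members in the 8 subclusters, with exact 95% counting intervals (left), and Myoc level in CPM on a log scale for subclusters with at least 5 cells in a library (right). Subcluster 3 holds 30.6% and 28.3% of GFP- members but 3.40% and 5.71% of GFP+ members, and has the highest Myoc in every library.

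The genes whose levels varied most among members, ranked within each library over 3374 genes, were Gm42418, which overlaps ribosomal RNA sequence, and then Mgp, Gsn, Apod, Cst3, Sparc, Cxcl14, Col1a1, Col3a1 and Malat1. Mgp, an inhibitor of calcification, was found in 93.9% to 99.3% of members, and Cxcl14, a chemokine, in 55.7% to 81.6%. In Sod1KO GFP-, 19 of 427 members held 50% of all Cxcl14 UMIs, while 132 members held 50% of those of the actin-severing protein gene Gsn.

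Members were then set against Pi16-type cells within each library. Since the rule separated these cells, the ratios are a description. Of 3850 genes with at least 30 UMIs in every library, 47 (1.22%) were more than 2-fold higher in members in all 4 libraries, and 32 (0.831%) were more than 2-fold lower. Without WT GFP-, where Pi16-type cells hold 78550 UMIs in 8 cells, 9862 genes could be compared and the counts were 156 and 228.

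The genes higher in members included secreted and surface proteins. Cst3, which encodes the protease inhibitor cystatin C, stood at 5855, 6065, 7326 and 6158 CPM in members and at 1833, 1917, 2164 and 1285 CPM in Pi16-type cells. Its log2 ratios of 1.68, 1.66, 1.76 and 2.26 put members above Pi16-type cells by similar amounts throughout. Clu stood at 171, 133, 537 and 445 CPM against 10.2, 5.78, 50.9 and 3.27 CPM, and both GFP- libraries lay above both GFP+ libraries. Ddit4l, an inhibitor of mTOR signalling, stood at 39.6, 39.1, 158 and 56.9 CPM against 0.788, 2.67, 12.7 and 2.73 CPM. These last values for Pi16-type cells rest on few UMIs, 1 of them in WT GFP-.

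Hmcn1, which encodes the basement membrane protein hemicentin 1, had log2 ratios of 2.16, 3.49 and 2.71 in the 3 libraries other than WT GFP-, and at least 2.23 in WT GFP-, where Pi16-type cells had 0 UMIs and were set at 3 UMIs. The osteoblast cadherin Cdh11 had 1.61, 1.50 and 2.75, and at least 2.30. Lsamp, an adhesion molecule first described in the limbic system, stood at 367, 357, 273 and 313 CPM in members against 63.1, 98.7, 12.7 and 40.9 CPM. Kctd12, a partner of GABA-B receptors, stood at 177, 225, 208 and 324 CPM against 52.0, 66.7, 25.5 and 77.4 CPM. The ephrin receptor Epha4 had log2 ratios of 2.45, 2.09 and 1.78 outside WT GFP-. In WT GFP- these 3 genes had 1 or 2 UMIs in Pi16-type cells.

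Comp and Tnmd, which are also tendon genes, need the subclusters beside them. Over all members Tnmd, the tendon membrane protein tenomodulin, had log2 ratios of 1.50, 2.55 and 1.51 in the 3 libraries other than WT GFP-. They were -1.05, -0.49 and -1.17 in subclusters 1 to 3. Comp stayed more than 2-fold higher in subclusters 1 to 3, and Ecrg4, a secreted peptide precursor, had a log2 ratio of 0.72 in Sod1KO GFP+ there and was no longer called. Of the 12 named genes that were higher over all members, 9 had enough UMIs in subclusters 1 to 3 and 8 of them passed 2-fold in all 4 libraries.

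Several named genes were lower in members. Cd55, which protects cells from complement, stood at 54.9, 31.0, 62.6 and 59.3 CPM in members and at 454, 291, 331 and 529 CPM in Pi16-type cells. Fbn1, which encodes the microfibril protein fibrillin 1, stood at 591, 544, 534 and 613 CPM against 2591, 2029.8, 2483 and 3385 CPM. Fn1, fibronectin, had log2 ratios of -1.86, -1.60, -2.10 and -2.72, and Ltbp1, which holds latent TGF-beta in the matrix, -2.56, -1.58, -2.26 and -2.66. For Cd55, Fbn1 and Ltbp1 no member library reached any Pi16-type library, while Fn1 in GFP+ members (745 and 667 CPM) lay above that in WT GFP- Pi16-type cells (598 CPM).

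Further genes lower in members were Pla1a, a phospholipase, at -4.09, -4.15, -3.34 and -2.75, and Sema3c, a guidance cue, at -3.02, -2.55, -2.06 and -2.81. Ugdh makes a building block of hyaluronan, and stood at 145, 171, 132 and 141 CPM against 1015, 923, 522 and 799.6 CPM. Pcsk6, Creb5, Procr, Tek and Psd3 also fell below. Of the 12 named genes on this side, 9 had enough UMIs in subclusters 1 to 3, and all 9 still passed 2-fold in all 4 libraries.

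**Figure D4:**
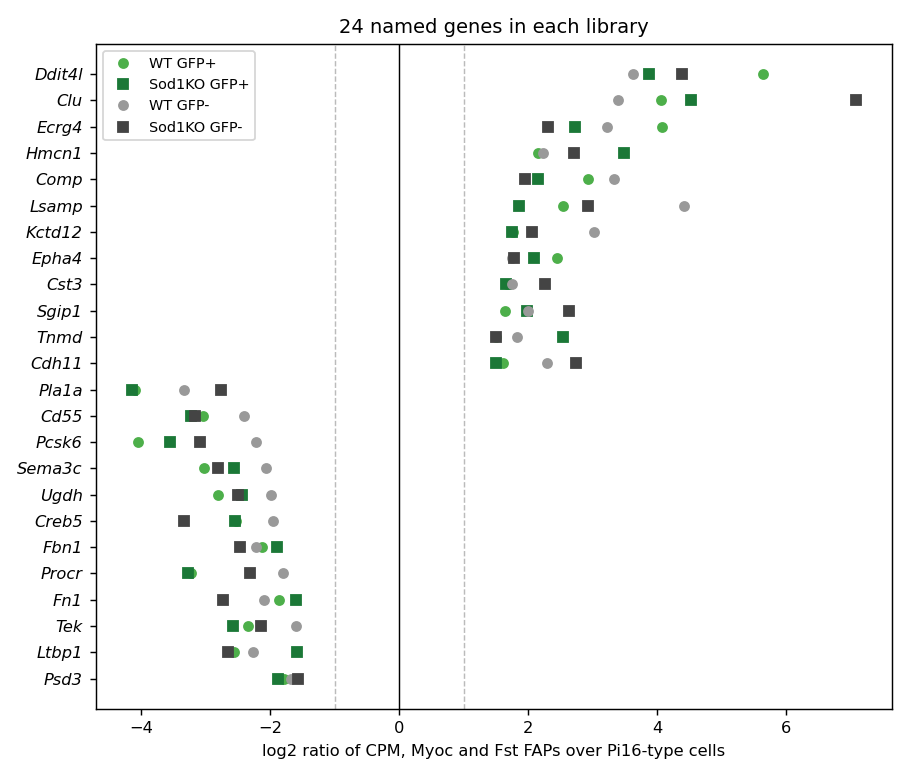
Log2 ratio of CPM in Myoc and Fst FAPs over Pi16-type cells for the 24 named genes, 1 symbol per library, with dashed lines at 2-fold. All symbols lie outside the dashed lines, with Cst3 between 1.66 and 2.26 and Fbn1 between -2.46 and -1.90.

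Gene lists were set beside all genes, of which 1.22% were higher and 0.831% lower in members, with medians of -0.04 to 0.11 over the libraries. At shares this low, 0 called genes in a short list does not set it apart from other genes. Of 23 tested genes of FAP identity, 0 were higher and 3 were lower in members (Thy1, Cd55 and Tek), with a median log2 ratio of 0.06. Collagens (0 of 17 called), immediate early genes (0 of 21), heat shock genes (0 of 13) and adipogenic genes (0 of 15) had no called gene. In TGF-beta signalling, the ligand Gdf10 (230, 264, 199 and 216 CPM in members) and the activin receptor Acvr2a (115, 127, 95.6 and 104 CPM) were higher in members, and Ltbp1 was lower, of 16 tested. Among the 9 tested activin and BMP antagonists other than Fst, Bmper was higher, with log2 ratios of 2.07, 1.53, 1.22 and 1.55. Among 11 complement genes Cd55 was lower.

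Against the other Pdgfra-detected cells, with fewer than 4 genes of either list, 61 of 7213 genes (0.846%) were more than 2-fold higher in members in all 4 libraries and 48 (0.665%) were lower. Those higher held several secreted or surface regulators. Dkk2, a secreted Wnt modulator, stood at 303, 204, 544 and 229 CPM in members and at 80.8, 60.6, 39.9 and 57.7 CPM in the other cells. Cd248, or endosialin, a surface protein of stromal cells, had log2 ratios of 2.64, 2.03, 2.15 and 2.27. Bmper stood at 221, 261, 148 and 306 CPM against 49.9, 77.6, 34.3 and 88.9 CPM, Wnt11, a Wnt ligand, had 2.79, 2.02, 2.68 and 2.52, and Pappa had 3.03, 2.74, 2.41 and 2.12. Trhde, Nova1, Ifi205, Cadm3 and Angpt4 completed the 10 named genes.

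Among the genes lower in members here, Chad, a cartilage and tendon matrix protein, stood at 307, 325, 3.29 and 52.2 CPM against 2253, 1747, 55.6 and 624 CPM. The tendon transcription factor Mkx had log2 ratios of -2.32, -2.15, -1.98 and -2.17, and the Wnt inhibitor Wif1 had -3.23, -2.10, -1.86 and -3.18. Within subclusters 1 to 3, 9 of the 10 named lower genes and all 8 higher ones with enough UMIs kept their call, and Nova2 lost it.

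The sort by GFP divided the members. Of 9613 genes, 218 (2.27%) were more than 2-fold higher in GFP+ members of both genotypes and 61 (0.635%) were lower. Among those higher, Mbp, a myelin protein, stood at 105, 95.6, 3.29 and 2.03 CPM. For Cd74 in WT GFP+, 1 cell held 99.1% of 326 UMIs. In subclusters 1 to 3 the counts were 43 and 31 of 6453 genes, and 0 of the 8 named higher genes had enough UMIs to be compared.

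Among genes higher in GFP- members, Stmn2 and 2200002D01Rik, both leading genes of subcluster 3, stayed past 2-fold in subclusters 1 to 3. Subcluster 3 made up 5 of 83, 18 of 190, 11 of 22 and 121 of 319 of those cells. Stmn2 stood at 18.6, 16.6, 168 and 91.6 CPM, which gave log2 ratios of GFP+ over GFP- of -3.17 in WT and -2.47 in Sod1KO. Within subcluster 3 Stmn2 was at 163, 190, 384 and 283 CPM, with ratios of -1.24 and -0.57, so that it was no longer past 2-fold in Sod1KO. 2200002D01Rik had -3.11 and -2.01 over all members and -2.20 and -1.22 within subcluster 3. The GFP+ side of these last 2 rests on 6 UMIs, all in 1 of 5 cells, in WT and on 16 UMIs in 9 of 18 cells in Sod1KO. The other named genes on this side (Cldn5, Aqp7, Tcf15, Cyyr1, Ablim3 and Cox4i2) could not be compared there.

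Between genotypes, 70 of 11085 genes (0.631%) were more than 2-fold higher in Sod1KO members in both sorts, and 38 (0.343%) were more than 2-fold lower. The median log2 ratio over all genes was 0.01 in GFP+ and 0.06 in GFP-. A ratio past 2-fold in either direction was found for 3.30% of genes in GFP+ and for 14.4% in GFP-, where the WT library has 36 members, and 57.0% of genes had the same direction in both sorts. Of the 70 higher genes, 58 had 3 or fewer UMIs in WT GFP-, and 24 had intervals above 0 in both sorts. Of the 38 lower genes, 31 had intervals below 0 in both.

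The genes lower in Sod1KO members, 0.343% of all genes, included markers of endothelial and mural cells. The endothelial list had 3 of 10 genes lower (Egfl7, Cldn5 and Esam), with medians of -0.79 and -1.72, and the mural list had 3 of 10 lower (Rgs5, Kcnj8 and Higd1b). Rgs5, a pericyte marker, stood at 154, 48.9, 888 and 149 CPM, and Sox17, an endothelial transcription factor, at 10.1, 2.82, 67.5 and 6.96 CPM. Subcluster 8, with its endothelial and mural markers, held 4.08%, 2.86%, 30.6% and 5.39% of the members. In subclusters 1 to 3, 5 of 9111 genes (0.0549%) were lower in Sod1KO in both sorts, 1 of them called over all members too, and Rgs5 had log2 ratios of 1.54 in GFP+ and -1.80 in GFP-. The count of lower genes thus fell when subclusters 4 to 8 were left out, and the part of any single one of them was not tested.

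Higher genes over all members also held genes of other cells or single cells. Cldn1, a tight junction gene of perineurial cells, stood at 24.5, 100, 1.65 and 16.7 CPM. The histone genes Hist1h1b and Hist1h2ap rested on dividing cells, with 94.3% of Hist1h1b UMIs of Sod1KO GFP+ members in 1 cell, and for Nrg1, a Schwann cell growth factor, 1 cell held 83.0% and 96.0% of the UMIs in the Sod1KO libraries. In subclusters 1 to 3, 59 of 9111 genes (0.648%) were higher in Sod1KO in both sorts, 11 of which were also called over all members. Of the 59, 48 had 3 or fewer UMIs in WT GFP-, and 18 had intervals above 0 in both sorts.

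The 11 genes that were higher with and without subclusters 4 to 8 were Cx3cr1, Tex14, Pttg1, Stn1, Lars2, Gm42418, Ppm1n, Tnfaip8l3, Mapk10, Gm14164 and Gm16070. Cx3cr1, the fractalkine receptor, best known from macrophages and microglia, was counted 34, 195, 1 and 239 times in 22, 95, 1 and 139 members. These made 11.1, 36.7, 1.65 and 34.6 CPM, and both Sod1KO libraries lay above both WT libraries. The log2 ratio was 1.72 in GFP+ (1.19 to 2.29) and 4.39 in GFP- (1.90 to 9.70). It was 1.60 and 3.64 in subclusters 1 to 3. Of the 139 Cx3cr1-positive members in Sod1KO GFP-, 1 had a UMI of C1qa, 0 had Ptprc or Adgre1, 15 had Csf1r, 8 had Fcer1g and 3 had Lyz2, all of which are expressed by macrophages. Of the 95 in Sod1KO GFP+, 5 had C1qa, 1 had Ptprc, 1 had Adgre1, 12 had Csf1r, 6 had Fcer1g and 14 had Lyz2. Among the 288 members without Cx3cr1 in Sod1KO GFP-, 2 had C1qa, 11 had Csf1r, 10 had Fcer1g and 9 had Lyz2. Among the 220 without it in Sod1KO GFP+, 4 had C1qa, 9 had Csf1r, 9 had Fcer1g and 9 had Lyz2. Csf1r and Fcer1g were thus found in a larger share of the Cx3cr1-positive members in both Sod1KO libraries, and Lyz2 in Sod1KO GFP+ only. C1qa was also found in a larger share of them in Sod1KO GFP+ (5 of 95 against 4 of 220). In Sod1KO GFP- its shares were similar (1 of 139 against 2 of 288). The part of macrophage transcripts in the Cx3cr1 counts was not tested.

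The rise of Cx3cr1 was not particular to the members. In the cells that were not members, Cx3cr1 stood at 18.1, 37.1, 17.4 and 50.1 CPM, log2 ratios of 1.03 and 1.53. Tex14, a germ cell gene needed for intercellular bridges, stood at 15.4, 43.5, 6.59 and 43.2 CPM in members, and its log2 ratios were 1.50 and 2.71 in members and 1.09 and 1.09 in the other cells. Pttg1, which encodes securin, stood at 20.3, 46.7, 24.7 and 50.9 CPM in members, with 1.20 and 1.04 in members and 0.98 and 0.87 in the other cells. Ppm1n, a protein phosphatase, had 1.98 and 1.96 in the other cells. Gm42418 made 1.69%, 3.63%, 1.07% and 4.39% of member UMIs and 2.28%, 4.11%, 2.87% and 4.90% of UMIs of the other cells, and Lars2, a mitochondrial leucyl-tRNA synthetase, was at 366, 751, 244 and 903 CPM in members. These genes thus differed in the same direction in members and in the rest of each library, and whether that comes from genotype, pool or preparation cannot be told apart.

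Among the 11 genes, Mapk10 and Tnfaip8l3 lay nearest to no difference in the other cells, and both were low. Mapk10, a stress-activated kinase, had log2 ratios of 1.25 (0.42 to 2.17) and 1.74 (-0.16 to 4.81) in members and of 0.02 and 0.41 in the other cells. Tnfaip8l3, a lipid transfer protein, had 1.13 (0.10 to 2.30) and 1.81 (-0.09 to 4.88) in members and 0.00 and -0.06 in the other cells. Both had 7 or fewer UMIs in each WT library in subclusters 1 to 3. The difference between members and other cells has no test, since each is a sum within 1 library. The mix of the other cells also differs between the libraries.

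Ccn5, a secreted matricellular protein that is linked to Wnt signalling, was the 1 gene lower in Sod1KO with and without subclusters 4 to 8. It was counted 201, 130, 83 and 232 times in the members, which made 65.7, 24.5, 137 and 33.6 CPM, so that both WT libraries lay above both Sod1KO libraries. The log2 ratio was -1.43 in GFP+ (-1.76 to -1.10) and -2.02 in GFP- (-2.39 to -1.64), and in subclusters 1 to 3 it was -1.63 and -2.36. In cells that were not members Ccn5 stood at 31.5, 25.3, 4.87 and 11.1 CPM, with ratios of -0.31 and 1.19, so the direction in GFP- was the opposite there. The mix of cells also differed between the GFP- libraries. Endothelial-type cells made up 71.8% in WT and 57.3% in Sod1KO, and Pdgfra was detected in 7.81% and 19.2%. The part of that mix in the ratio outside the members was not tested. In WT GFP- members 1 cell held 16.9% of Ccn5 UMIs. Wnt2, the other Wnt gene that was lower, at 7.19, 1.51, 18.1 and 3.77 CPM, rested on 11 UMIs in WT GFP-.

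In subclusters 1 to 3 some further genes passed 2-fold. Postn, the matrix protein periostin, was higher, with 44, 257, 1 and 329 UMIs (37.5, 106, 2.68 and 73.5 CPM). Its log2 ratios were 1.50 in GFP+ (1.03 to 1.99) and 4.78 in GFP- (2.29 to 10.1). Few cells held these UMIs: 11 of 83 in WT GFP+, with 38.6% in 1 cell, and 40 of 319 in Sod1KO GFP-. Over all members Postn had 0.36 and 3.08, and in the other cells 0.71 and 1.07. Fbln7, a matrix protein of the fibulin family, was at 23.0, 47.4, 29.4 and 65.3 CPM, with ratios of 1.04 and 1.15. The alarmin Il33 was at 15.3, 39.1, 2.68 and 29.3 CPM, on 1 UMI in WT GFP-. Over all members Il33 had -0.11 in GFP+ and 0.54 in GFP-, so that the direction in GFP+ turned.

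**Figure D5:**
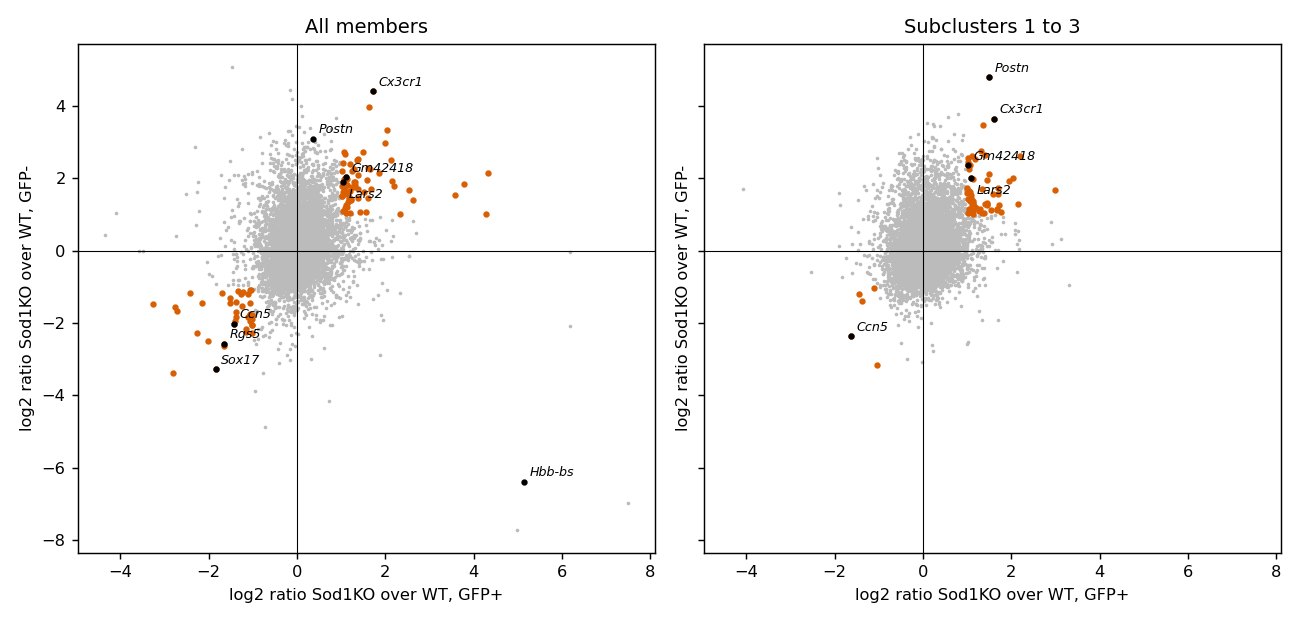
Log2 ratio of Sod1KO over WT in GFP+ (x) and GFP- (y) for each gene with at least 30 UMIs in each sort, over all 925 members (left) and over subclusters 1 to 3 (right), with genes past 2-fold in the same direction in orange and named genes in black. There are 38 lower genes on the left and 5 on the right, and Ccn5 is the only one among both.

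Between genotypes the lists were set beside the 0.631% of all genes that were higher and the 0.343% that were lower. Again, 0 called genes in a list does not set it apart at such shares. Of 25 tested genes of FAP identity 0 were called, of 28 superoxide and redox genes 0, of 23 adipogenic genes 0, of 22 TGF-beta family genes 0, of 12 activin and BMP antagonists other than Fst 0, and of 15 complement genes 0. Sod3, the extracellular superoxide dismutase, was at 127, 86.0, 175 and 63.6 CPM, with log2 ratios of -0.57 and -1.46, so that it passed 2-fold in GFP- alone. Gpx3, a secreted glutathione peroxidase, was at 541, 433, 1537 and 751 CPM. Redox genes had medians of -0.08 and 0.00, near those of all genes.

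Immediate early genes had 0 of 24 called, with 13 below 0 and 1 above 0 in both sorts and medians of -0.18 and -0.30. Of all genes, 25.3% were below 0 and 31.6% above 0 in both sorts. The list was not tested. Fos stood at 3267, 2600, 3310 and 1858 CPM. Heat shock genes (0 of 14), interferon and MHC class I genes (0 of 23), p53 and senescence genes (0 of 15) and chemokines and cytokines (0 of 22) had no called gene. Of 22 collagens Col6a5 was higher, on 6, 26, 2 and 85 UMIs. Of 19 tested synapse and axon adhesion genes Robo2 was higher, at 30.7, 63.0, 11.5 and 61.4 CPM, with ratios of 1.04 (0.70 to 1.38) and 2.41 (1.36 to 3.74). Within subclusters 1 to 3 Robo2 had 0.79 and 2.59. Subcluster 1, of which Robo2 was a leading gene, held a larger share of the members of each Sod1KO library than of the WT library of the same sort.

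Among transcription factors, Tbx18 was the 1 gene called of 19 tested limb and positional factors, on 43, 169, 5 and 153 UMIs, with ratios of 1.18 and 1.43. Foxp2 was the 1 called of 37 stromal factors. Within subclusters 1 to 3 its ratio in GFP- was -1.08, not held to the minimum of 30 UMIs. With a count of 0 set to 3 UMIs, that value can be a bound and shows no fall of Foxp2 there. Basement membrane genes (0 of 19), proteoglycans and fibre-associated matrix (0 of 30), proteases and their inhibitors (0 of 28), muscle trophic factors (0 of 18) and opioid peptide and receptor genes other than Penk (0 of 7) had no called gene. Igf1, the trophic factor for muscle fibres, stood at 781, 844, 381 and 599 CPM, and Smoc2, a BMP-modulating matrix protein and the most abundant listed antagonist, at 1814, 1094, 1621 and 2356 CPM. For Igf1 and Smoc2 the 2 genotypes overlapped across the sorts.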

How the data were processed

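Raw UMI counts per gene and barcode, deposited by the authors for 4 libraries, were used as deposited. The submitters' processing notes name Cell Ranger 7.1.0, Seurat 4.30 and mm10, while the study's methods also name another build. The authors' corrections for ambient RNA, doublets and batches came later and were not used, so ambient UMIs remain in the counts. No feature is named for GFP. Total counts were 81320146, 105954116, 21959719 and 101410418 UMIs in 5498, 7267, 2052 and 6598 barcodes (WT GFP+, Sod1KO GFP+, WT GFP- and Sod1KO GFP-), and WT GFP- is the least precise.

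Cells needed more than 200 genes and under 10% mitochondrial UMIs. The members and the 38 gene lists were chosen with earlier results of these data known. UMIs were summed over the members of a library. Ratios are of CPM, a called gene needed at least 30 UMIs over the cells compared, and a count of 0 was set to 3 UMIs. Ratios of named genes in subclusters 1 to 3 and under alternative settings were not held to that minimum. With 1 library per group no test across samples was made. A gene was called when it passed 2-fold in the same direction in both sorts (genotype), both genotypes (sort) or all 4 libraries (cell types), with the 15 genes of the rule left out. Intervals are Clopper-Pearson for shares, Newcombe for their differences and conditional binomial for ratios, at 95%.

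Named genes were the called genes with the largest smallest ratio, 12 in each direction for genotype and for Pi16-type cells, 10 for other Pdgfra cells and 8 for the sort, plus the 10 most variable genes, the 5 leading genes of each subcluster, and the most abundant and called genes of the lists. Some genes that this rule names are not reported here. Others named in the text (Sod3, Postn, Fbln7, Il33, Nova2 within subclusters, and the genes called both over all members and in subclusters 1 to 3) were chosen after their values were seen. Subclusters used log-transformed and scaled counts of the 1500 genes of highest Pearson residual variance, 20 principal components, 15 neighbours and Leiden at resolution 0.5. Doublets were scored by the share of simulated doublets among 50 neighbours, at 0.8% per 1000 barcodes, and removed only as an alternative. Python 3.11.15, numpy 2.4.6, pandas 2.3.3, scipy 1.17.1, scikit-learn 1.9.0, leidenalg 0.10.2 and matplotlib 3.10.9 were used, and the ratios were tested on simulated data.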

Additional observations from a re-analysis of the deposited data

Results flagged for a closer look

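Listed genes with ratios of Sod1KO over WT past 2-fold in opposite directions in the GFP+ and GFP- members, and both intervals apart from 0, are given here as the GFP+ minus the GFP- log2 ratio. These differences were not tested, and where WT GFP- had 0 UMIs its level was set at 3 UMIs, so that the value is a bound on the difference. The haemoglobin genes stood apart most, at 12.68 for Hba-a1, 8.26 for Hba-a2, 11.53 for Hbb-bs and 14.48 for Hbb-bt. In Sod1KO GFP+ 1 member held 99.3% of 5369 Hbb-bs UMIs, and in WT GFP- 6 members held 1341 UMIs. The cell cycle genes Mki67 (-5.14), Top2a (-4.06), Cdk1 (-3.33) and Ube2c (-2.60) had 0 UMIs in WT GFP- and lay in at most 9 members of any library. Kera (-6.54), a keratocan gene of tendon and cornea, had 897, 559, 1 and 380 UMIs in WT GFP+, Sod1KO GFP+, WT GFP- and Sod1KO GFP- members. Chodl was at -4.00 or lower, with 0 UMIs in WT GFP- and 83.1% of its Sod1KO GFP- UMIs in 1 cell. The chemokine gene Ccl2 was at -3.17, with 330, 253, 9 and 406 UMIs, and its 9 UMIs in WT GFP- came from 1 cell. Nrxn2 was at -4.06, with 1 UMI in WT GFP-, and Lypd2 was at 3.88, with 15, 101, 40 and 120 UMIs.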

How the results depend on the processing

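No paired analysis was possible because each group is 1 library, so groups share fewer than 2 replicate numbers, and the results are values without a test. The 2 sorts of a pool and the cell types of a library are compared within that pool or library, and each of these ratios is given on its own. No alternative turned the direction of a difference in member share. In GFP+ (1.92 points) it was 0.95 with at least 5 marker genes, 2.87 with at least 3 and 0.77 with fewer than 2 excluding genes. In GFP- (5.70 points) these gave 3.94, 6.87 and 2.95, thinned cells 3.79, stricter cell filters 7.48 and, chosen after seeing the data, subclusters 1 to 3 alone 4.55. The 70 genes higher in Sod1KO became 16 at a minimum of 100 UMIs and 24 where both intervals had to lie apart from 0. The 38 lower genes became 58 with fewer than 2 excluding genes, 21 thinned, 19 without doublets, 10 at 100 UMIs and, chosen after seeing the data, 5 in subclusters 1 to 3 and 14 without members that hold other markers. Against Pi16-type cells, the 47 higher genes became 25 with at least 3 marker genes, 124 thinned, 24 at 100 UMIs and 156 without WT GFP-. The 32 lower genes became 62 with at least 5 marker genes, 20 with fewer than 2 excluding genes, 84 thinned, 7 at 100 UMIs and 228 without WT GFP-. Median-of-ratios scaling gave 72 and 38 for genotype, and 49 and 28 against Pi16-type cells, where it moved the ratios of WT GFP- by 0.24. The 70 and 38 genes were of 11085 compared, and the 47 and 32 of 3850. Several settings also changed how many genes could be compared, as in subclusters 1 to 3 with 9111 for genotype. A change in a count is therefore not by itself a change in the share called, and the called genes were not always the same. The cause of these moves was not tested.

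Among named genotype ratios, some had the opposite sign in subclusters 1 to 3. In GFP- these were Foxp2 (-1.08), Sbspon (-2.00), Nrg1 (-3.17), Stra6 (-1.26) and Higd1b (0.42). In GFP+ they were Nrg1 (-0.81), Kcnj8 (1.34), Rgs5 (1.54), Cox4i2 (0.95) and Col28a1 (-0.31). Without members that hold other markers, the sign was opposite in GFP- for Dnah12 (-0.53), Sbspon (-2.07), Nrg1 (-3.20), Tmtc4 (-0.77), Rgs5 (0.73), Fgf9 (0.060) and Ano1 (0.97). In GFP+ it was opposite for Nrg1 (-1.26), Rgs5 (1.03) and Cox4i2 (2.49). With the mean of per-cell CPM it was opposite for Nrg1 (-0.18) in GFP-. These ratios were not held to the minimum of 30 UMIs, and a count of 0 was set to 3 UMIs. Some of them can therefore be bounds, whose sign shows no turn of direction. These 3 settings were chosen after seeing the data. With 36 members in WT GFP-, a gene under about 30 UMIs there has wide intervals.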
